A study of Mus musculus with 24 samples.

Results

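The interleukin-1 family genes described here were 10 mouse genes, taken by symbol from the 55421 rows of the deposited count table: the ligands Il1a, Il1b, Il18 and Il33, the antagonist Il1rn, the receptor genes Il1r1, Il1r2 and Il1rap, and Nlrp3 and Casp1 of the inflammasome. All 10 had a row, and 7 of them were among the 14380 genes with enough counts to be tested. RNA came from the left brain hemisphere of C57BL/6J mice aged 3 months, sequenced from the 3′ ends of transcripts with 6 animals a group. The groups were Nox2 knockout mice given lipopolysaccharide (LPS, the endotoxin of Gram-negative bacteria), wild type mice given LPS, Nox2 knockout mice given the vehicle PBS and wild type mice given PBS. Injections of 100 µl into the peritoneum were daily for 4 days, and the LPS dose was 1 µg per gram of body weight per day, from Salmonella abortus equi. Nox2 (gp91phox, gene Cybb) is the subunit with which phagocytes' NADPH oxidase makes superoxide, and the study asked how it bears on neurodegeneration after repeated LPS.

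Interleukin-1α and interleukin-1β signal through the same receptor, IL1R1, which recruits the accessory protein IL1RAP and then the adaptor MyD88 and the IRAK kinases, leading to activation of NF-κB. IL1R2 binds the ligands but lacks a signalling domain and acts as a decoy, and the antagonist encoded by Il1rn occupies IL1R1 without starting a signal. Pro-interleukin-1β and pro-interleukin-18 are cut to their active forms by caspase-1, which is activated in inflammasomes such as the one built by NLRP3; that step acts on protein and is not seen in RNA. In the brain IL1R1 is best known from vascular endothelium, IL-1β from microglia and infiltrating myeloid cells, and interleukin-33, an alarmin held in the nucleus, from oligodendrocytes and astrocytes.

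Libraries held 2340184 to 5256169 counts, so 1 CPM (a gene's share of the library's counts, scaled to a total of 1000000) stood for 2.34 to 5.26 counts. Cybb read 66.7 to 77.8 CPM in knockout mice given LPS and 15.6 to 33.8 CPM in wild type mice given LPS. After PBS, Cybb read 62.2 to 75.2 CPM in knockout mice and 0.85 to 2.47 CPM in wild type mice. Its 3′ tags were thus more numerous in every library labelled knockout than in any wild type library, and tags at the 3′ end do not check a deletion elsewhere in the gene; "knockout" below means the library's label. Wild type LPS libraries 1 and 2 stood apart from the other 4 of that group, with 5.07% and 5.39% of counts in mitochondrial ribosomal RNA against 3.39% to 3.6%, and results that change without both are given with and without them. S100a5 had 0 counts in both and 30 to 37 in the other 4. It also differed with genotype, with 0 to 5 counts in knockout libraries. Wild type PBS library 4 had 0 and the others of its group 26 to 83. Gh had 6460 counts in knockout LPS library 4 and at most 96 elsewhere. The part of these differences in the values below was not tested. In whole hemisphere RNA, a different number of cells of a type and a different amount of RNA per cell cannot be told apart.

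The 250 bases upstream of the RefSeq transcription start (GRCm38.p6, the study's build) are shown for Il1b, Il1r2 and Il1r1, because these were the members higher after LPS in both genotypes. All 10 members had at least 1 such window, 15 in all. Capitals mark a match to a searched motif; each sequence runs 5′ to 3′ on the gene's strand, and the Il1r2 window is given up to its motif because an annotated exon of another Il1r2 transcript begins there.
Il1b, chr2:129371140-129371389, minus strand: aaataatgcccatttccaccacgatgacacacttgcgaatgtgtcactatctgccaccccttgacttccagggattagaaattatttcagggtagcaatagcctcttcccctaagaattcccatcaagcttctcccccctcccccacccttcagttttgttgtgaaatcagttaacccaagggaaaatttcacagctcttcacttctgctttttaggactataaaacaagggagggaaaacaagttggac
Il1r2, chr1:40085843-40085990, plus strand: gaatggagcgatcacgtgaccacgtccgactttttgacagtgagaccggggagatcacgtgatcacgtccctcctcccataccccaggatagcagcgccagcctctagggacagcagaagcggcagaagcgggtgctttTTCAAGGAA
Il1r1, chr1:40224830-40225079, plus strand: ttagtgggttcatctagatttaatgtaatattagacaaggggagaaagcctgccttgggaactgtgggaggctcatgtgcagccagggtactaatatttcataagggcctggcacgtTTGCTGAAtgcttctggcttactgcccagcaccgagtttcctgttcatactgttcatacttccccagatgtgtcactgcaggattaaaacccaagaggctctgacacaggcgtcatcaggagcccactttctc

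Motifs were searched on both strands: the kappa-B site, the PU.1 site AGGAAGT, the C/EBP site TTGCNNAA and the STAT site TTCNNNGAA. The Il1r2 window held a STAT match at bases -111 to -103 from the start, the Il1r1 window a C/EBP match at -133 to -126, and the Il1b window none. A STAT match was present in 7.02% of all 32851 windows of this length and a C/EBP match in 9.56%. Among the other members, a kappa-B match lay upstream of an Nlrp3 start at -186 to -177 and of a second Il1r1 start at -232 to -223, and a C/EBP match upstream of a second Il33 start at -85 to -78; kappa-B matches occurred in 7.25% of windows and PU.1 matches in 7.69%. These are matches of letters, not measured binding.

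On the GRCm38 assembly with the GENCODE M21 annotation, Il1b (ENSMUSG00000027398, chr2:129364570-129371139) and Il1a (ENSMUSG00000027399, chr2:129299610-129309972) lie 54.6 kb apart on the minus strand of chromosome 2, far from Il1rn (ENSMUSG00000026981, chr2:24336853-24351494). Il1r2 (ENSMUSG00000026073, chr1:40074079-40125231) lies 99.8 kb before Il1r1 (ENSMUSG00000026072, chr1:40225080-40317257) on the plus strand of chromosome 1, followed there by Il1rl2, Il1rl1, Il18r1 and Il18rap. The strand setting of the counting was not given in the sources used here, so reads of Il1b and its antisense gene Il1bos, of Il1r2 and Gm16894, of Il1rap and Gm20319, of Il1a and Gm14023, and of Il18 and its opposite-strand neighbours Bco2 and Tex12 cannot be told apart where they overlap.

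After LPS, 3 of the 7 tested members were called higher in each genotype: Il1b, Il1r2 and Il1r1. No tested member was called lower in wild type mice by edgeR or DESeq2, with 2 lower at an unadjusted p under 0.05, and Il33 was called lower in knockout mice. A gene was called when the edgeR quasi-likelihood test gave an adjusted p under 0.05 over all tested genes. Among all 14380 genes, 7.05% were called higher and 3.82% lower after LPS in knockout mice, and 10.9% higher and 7.12% lower in wild type mice. The median log2 fold change of the 7 was 0.91 in knockout mice and 0.79 in wild type mice, against 0.00 and -0.01 over all genes. Il1b, Il1r2 and Casp1 reached the count minimum, about 2.6 CPM, in LPS libraries and in no PBS library, so their share of the tested members is no evidence about the family.

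Il1b, the inducible IL-1 ligand, was close to absent after PBS and present in all 12 LPS libraries. It read 1.16, 2.87 and 7.13 CPM (lowest, median and highest of 6) in knockout mice given LPS and 2.6, 4.48 and 6.7 CPM in wild type mice given LPS. After PBS, Il1b read 0, 0.243 and 0.724 CPM in knockout mice and 0, 0.199 and 0.74 CPM in wild type mice. LPS and PBS groups did not overlap in either genotype, which held for 4.19% of tested genes in the higher direction in knockout mice and 5.99% in wild type mice. The log2 fold change was 3.35 ± 0.52 (SE, edgeR adjusted p = 3.17e-06) in knockout mice and 3.89 ± 0.48 (adjusted p = 1.78e-08) in wild type mice. These values rested on 78 counts after LPS and 7 after PBS in knockout mice, and on 105 and 7 in wild type mice.

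**Figure D1:**
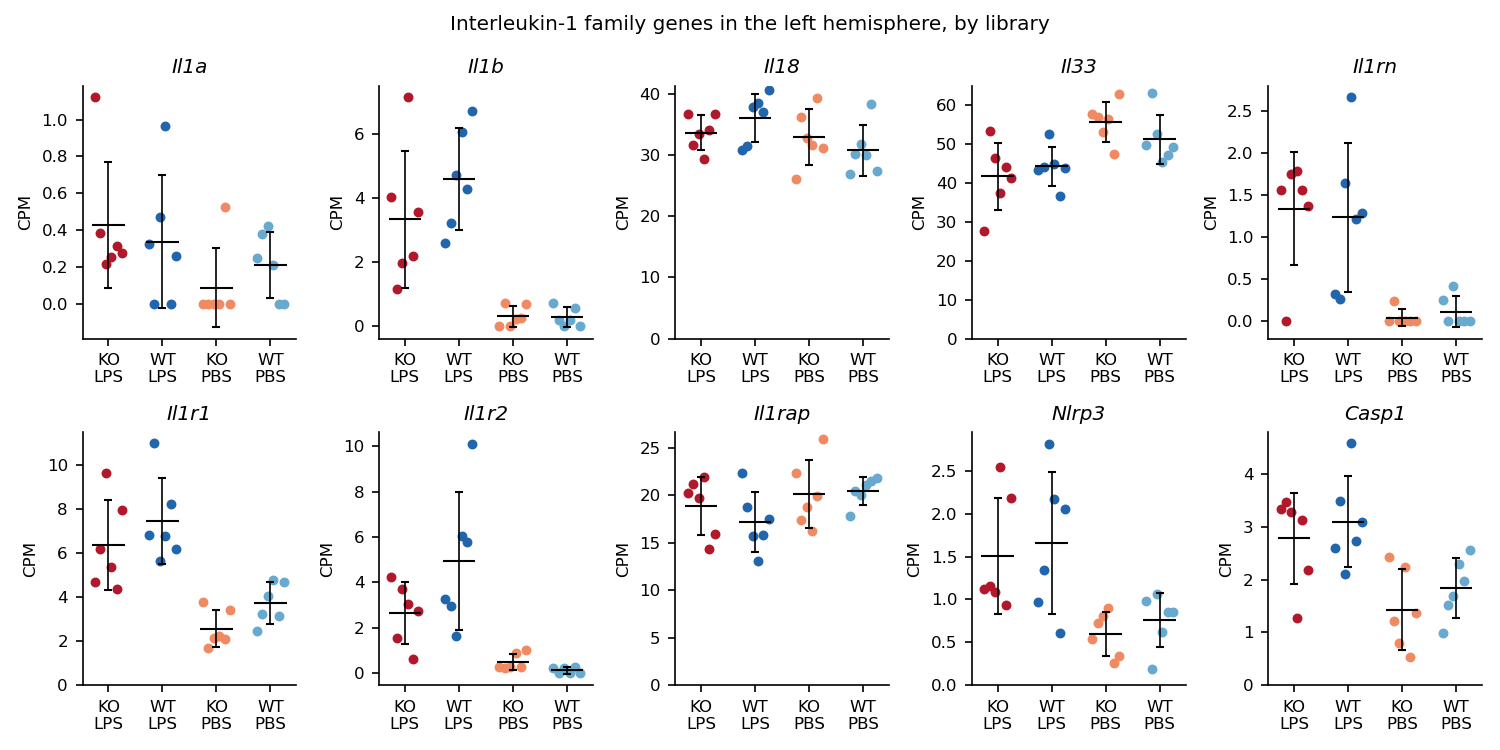
Levels (CPM, y axes, linear and different for each gene) of the 10 genes in knockout (KO) and wild type (WT) mice given LPS or PBS; each point is a library, bars are the mean ± SD of 6. Il1b, Il1r1 and, in wild type, Il1r2 show no overlap between LPS and PBS libraries, whereas Il18 and Il1rap overlap in both genotypes.

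Il1a, the other IL-1 agonist, was near the detection limit, with 10 counts over the 6 knockout LPS libraries, 8 over the wild type LPS libraries, 2 over the knockout PBS libraries and 6 over the wild type PBS libraries. It failed the count minimum. The ratio of its CPM, LPS over PBS, was 5.08 in knockout mice (exact 95% interval from counting error 1.08 to 47.6) and 1.47 in wild type mice (0.448 to 5.15). Knockout LPS library 1 alone supplied 5 of the 10 counts. In a fit of 32360 genes with no count minimum its adjusted p was 0.269 in knockout and 0.82 in wild type mice, so no change was detectable at this depth. The knockout value rested on PBS library 5, which held both PBS counts. Without that library Il1a was called higher in that fit (edgeR adjusted p = 0.0295). The p-values of the fit with no count minimum were close to those of a normal distribution of change over SE. It thus let the spread of each gene between animals count for little, and its calls, here and below, can be too many.

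Il33 was the most abundant member in every group. It read 27.7, 42.6 and 53.2 CPM in knockout mice given LPS and 36.6, 43.9 and 52.4 CPM in wild type mice given LPS. After PBS, Il33 read 47.2, 56.5 and 62.6 CPM in knockout mice and 45.2, 49.4 and 63.0 CPM in wild type mice. All 6 knockout LPS libraries lay below the mean of the knockout PBS libraries, although the ranges overlapped. Il33 fell by 0.44 ± 0.10 on the log2 scale in knockout mice (edgeR adjusted p = 0.00145), against -0.22 ± 0.10 in wild type mice (adjusted p = 0.126); the difference of these changes was -0.22 ± 0.14 (adjusted p = 0.639). Without the count minimum the wild type change was called too (-0.24 ± 0.08, edgeR adjusted p = 0.0358), as were 3.69% of genes in the lower direction. That call had a smaller SE and the limit given with Il1a. Summed over 8 oligodendrocyte markers, levels were 4150 to 4710 CPM in knockout mice given LPS and 3870 to 4910 CPM in wild type mice given LPS. After PBS, the oligodendrocyte sum was 4600 to 4970 CPM in knockout mice and 4630 to 5230 CPM in wild type mice. The test of LPS against PBS called 3 of the 8 markers lower and 2 higher in knockout mice, and 4 lower and 2 higher in wild type mice. Among all genes, 3.82% were called lower and 7.05% higher in knockout mice, and 7.12% lower and 10.9% higher in wild type mice. The 8 astrocyte markers summed to 4540 to 4880 CPM in knockout mice given LPS and 4520 to 4790 CPM in wild type mice given LPS. After PBS, the astrocyte sum was 4430 to 4540 CPM in knockout mice and 4390 to 4460 CPM in wild type mice. Of the 8 astrocyte markers, 3 were called higher and 0 lower after LPS in knockout mice, and 5 higher and 1 lower in wild type mice. The part of either cell type in the Il33 values was not tested.

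Il18, whose product is a caspase-1 substrate, missed the threshold in both genotypes after LPS. It ranged from 29.3 to 36.7 CPM in knockout mice given LPS and 30.8 to 40.5 CPM in wild type mice given LPS. After PBS, Il18 read 26.0 to 39.3 CPM in knockout mice and 26.9 to 38.3 CPM in wild type mice. The log2 fold change after LPS was 0.03 ± 0.09 in knockout mice (edgeR adjusted p = 0.905) and 0.23 ± 0.09 in wild type mice (adjusted p = 0.0793). The wild type value passed the threshold without libraries 1 and 2 of the LPS group (0.31, adjusted p = 0.0166), and also without either of them or without PBS library 5 alone.

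Il1rn, the receptor antagonist, had 32 counts over the knockout LPS libraries, 29 over the wild type LPS libraries, 1 over the knockout PBS libraries and 3 over the wild type PBS libraries. It read 0, 1.56 and 1.78 CPM in knockout mice given LPS and 0.269, 1.25 and 2.66 CPM in wild type mice given LPS, and it was at 0 in 5 of 6 knockout and 4 of 6 wild type PBS libraries. Knockout LPS library 2 was the LPS library with no count, and wild type LPS libraries 1 and 2 had 1 count each. Il1rn failed the count minimum. The ratio of its CPM, LPS over PBS, was 32.5 (exact 95% interval 5.43 to 1320) in knockout mice and 10.7 (3.31 to 54.8) in wild type mice. In the fit with no count minimum, where 3.54% of genes were called higher after LPS in knockout and 5.01% in wild type mice, Il1rn was called higher in both (edgeR adjusted p = 1.2e-05 in knockout, 0.000351 in wild type mice), and it stayed so in all 24 fits that left out 1 library.

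Il1r1, the signalling receptor, rose after LPS in both genotypes. It read 4.38, 5.76 and 9.61 CPM in knockout mice given LPS and 5.64, 6.79 and 11 CPM in wild type mice given LPS. After PBS, Il1r1 read 1.69, 2.2 and 3.79 CPM in knockout mice and 2.47, 3.63 and 4.79 CPM in wild type mice. Every LPS library lay above every PBS library of its genotype. The log2 fold change was 1.34 ± 0.25 in knockout mice (edgeR adjusted p = 9.09e-05) and 1.00 ± 0.22 in wild type mice (adjusted p = 0.000823). Endothelial markers, 8 in number, summed to 411 to 470 CPM in knockout mice given LPS and 461 to 552 CPM in wild type mice given LPS. After PBS, the endothelial sum was 198 to 252 CPM in knockout mice and 224 to 261 CPM in wild type mice. Of the 8 markers, 7 were called higher after LPS in knockout mice and 8 in wild type mice, against 7.05% and 10.9% of all genes. Between genotypes, 3 of the 8 were called lower in knockout than in wild type mice after LPS and 1 after PBS, and 0 were higher. Among all genes, 1.05% were called in either direction between genotypes after LPS and 0.132% after PBS. The part of endothelial cells in the Il1r1 values was not tested.

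Il1r2, the decoy receptor and a gene of high expression in neutrophils, had the largest count ratio of the 10 genes after LPS in wild type mice. It read 0.625, 2.9 and 4.24 CPM in knockout mice given LPS and 1.64, 4.52 and 10.1 CPM in wild type mice given LPS. After PBS, Il1r2 read 0.241, 0.27 and 1.03 CPM in knockout mice and 0, 0.106 and 0.283 CPM in wild type mice. The wild type groups did not overlap; in knockout mice, LPS library 5 lay within the range of the PBS libraries. Over the group, 64 counts after LPS stood against 11 after PBS in knockout mice, a ratio of 5.91 (exact 95% interval 3.09 to 12.4), and 111 against 3 in wild type mice, a ratio of 40.9 (13.6 to 201). The edgeR adjusted p was 0.00046 in knockout mice (log2 fold change 2.46 ± 0.51) and 2.65e-09 in wild type mice.

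Neutrophil, monocyte, microglia and border macrophage marker sums were higher after LPS, as were Il1b, Il1rn and Il1r2. The summed level of 12 neutrophil markers was 94.4 to 404 CPM in knockout mice given LPS and 126 to 720 CPM in wild type mice given LPS. After PBS, the neutrophil sum was 9.19 to 42.8 CPM in knockout mice and 9.62 to 21.2 CPM in wild type mice, and all 7 tested markers were called higher after LPS in both genotypes. Cxcr2 was at 0 in the wild type PBS libraries. Sums over 8 monocyte markers were 87.5 to 144 CPM in knockout mice given LPS and 124 to 248 CPM in wild type mice given LPS. After PBS, the monocyte sum was 7.27 to 14.5 CPM in knockout mice and 6.24 to 14.6 CPM in wild type mice, with 5 of 5 tested markers called higher after LPS in both genotypes and Clec4e at 0 in all PBS libraries. At these low PBS levels a marker can reach the count minimum through LPS libraries alone, so 7 of 7 and 5 of 5 may be partly fixed by the filter. Counts of markers called stand against 7.05% of all genes higher in knockout mice, and 10.9% higher and 7.12% lower in wild type mice. The 8 microglia markers summed to 353 to 468 CPM in knockout mice given LPS and 409 to 535 CPM in wild type mice given LPS. After PBS, the microglia sum was 219 to 249 CPM in knockout mice and 223 to 272 CPM in wild type mice. Of these 8, 5 were called higher after LPS in knockout mice, and 6 higher and 1 lower in wild type mice. Border macrophage markers, also 8, summed to 57.4 to 76.7 CPM in knockout and 70.7 to 100 CPM in wild type mice given LPS. After PBS, that sum was 17.5 to 22.5 CPM in knockout and 20.4 to 28.1 CPM in wild type mice. Of 7 tested, 7 were called higher in knockout and 6 in wild type mice. Among wild type LPS libraries, number 6 had the highest neutrophil sum (720 CPM), Il1r2 (10.1 CPM) and Il1b (6.7 CPM), and numbers 1 and 2 had the lowest neutrophil sums (138 and 126 CPM), Il1b (2.6 and 3.22 CPM) and Il1rn (0.325 and 0.269 CPM). The lowest Il1r2 of that group, 1.64 CPM, was in library 3, whose neutrophil sum of 278 CPM was the third highest. Among knockout LPS libraries, numbers 2 and 5 had the lowest neutrophil sums (94.4 and 95.6 CPM) and the lowest Il1r2 (1.54 and 0.625 CPM), whereas number 6, with the highest sum, had 2.74 CPM of Il1r2, and number 4, with the highest Il1b (7.13 CPM), had a sum of 170 CPM. Il1rn in that group did not follow the neutrophil sum throughout, at 0 CPM in library 2, 1.56 CPM in library 5 and 1.37 CPM in library 6. Knockout LPS library 4 also had the highest monocyte sum of its group (144 CPM), and library 2, with the lowest Il1b (1.16 CPM), had the lowest (87.5 CPM). Wild type LPS libraries 1 and 2 were also lowest in monocyte sums (140 and 124 CPM) and microglia sums (409 and 412 CPM). The highest wild type monocyte sum, 248 CPM, was in LPS library 4 and not in library 6. The part of these cells in the values was not tested.

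**Figure D2:**
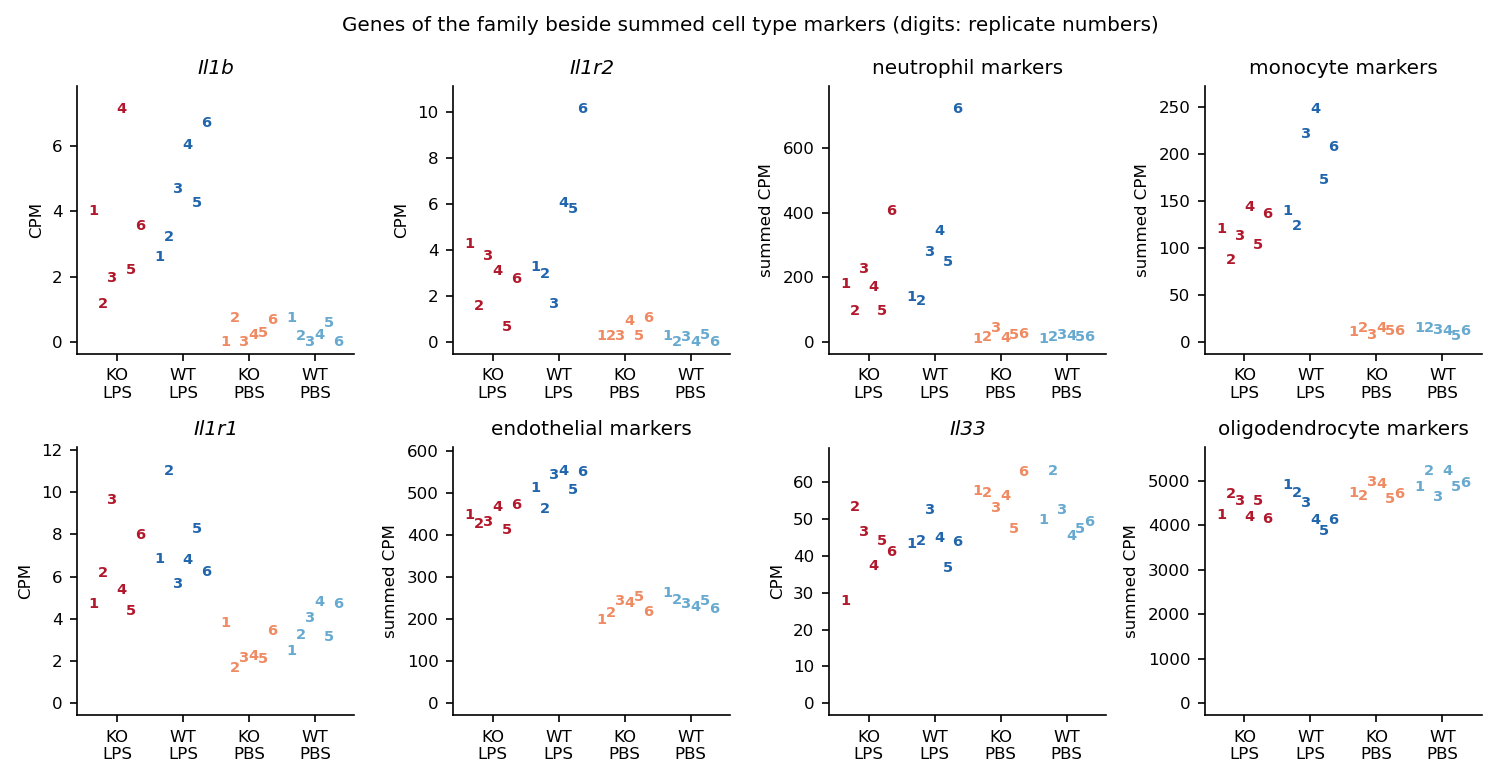
Il1b, Il1r2, Il1r1 and Il33 (CPM) and the summed CPM of neutrophil, monocyte, endothelial and oligodendrocyte markers in every library; the x axis gives the group, and each digit is a library drawn at its value as its replicate number. Wild type LPS library 6 is highest for both Il1r2 and the neutrophil sum, at 10.1 and 720 CPM.

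Il1rap, the accessory protein shared by receptors of the family, was not called in any comparison. It ranged from 14.4 to 21.9 CPM in knockout mice given LPS and 13.1 to 22.4 CPM in wild type mice given LPS. After PBS, Il1rap read 16.3 to 26.0 CPM in knockout mice and 17.8 to 21.8 CPM in wild type mice. The log2 fold change after LPS was -0.08 ± 0.12 in knockout mice (edgeR adjusted p = 0.802) and -0.26 ± 0.12 in wild type mice (adjusted p = 0.14). Without wild type LPS libraries 1 and 2 it was called lower in wild type mice (-0.40, adjusted p = 0.0235), and so it was without library 1 alone (adjusted p = 0.0464).

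Casp1, the protease of the inflammasome, averaged 2.78 ± 0.869 CPM in knockout mice given LPS and 3.11 ± 0.864 CPM in wild type mice given LPS. After PBS, Casp1 averaged 1.43 ± 0.764 CPM in knockout mice and 1.84 ± 0.566 CPM in wild type mice (SD, n = 6 each). Its log2 fold change missed the threshold in both genotypes, at 0.91 ± 0.32 in knockout mice (edgeR adjusted p = 0.0621; 5 of 6 LPS libraries above the PBS mean) and 0.79 ± 0.30 in wild type mice (adjusted p = 0.0591; 6 of 6). It passed in knockout mice without LPS library 4 (adjusted p = 0.025), PBS library 1 (0.0294) or PBS library 4 (0.0354), and in wild type mice without LPS library 3 (0.0381) or PBS library 6 (0.0471). Nlrp3, the sensor, read 0.938 to 2.55 CPM in knockout mice given LPS and 0.61 to 2.82 CPM in wild type mice given LPS. After PBS, Nlrp3 read 0.262 to 0.895 CPM in knockout mice and 0.19 to 1.06 CPM in wild type mice. It failed the count minimum; its groups did not overlap in knockout mice, and in the fit with no minimum the log2 fold change was 1.25 ± 0.51 in knockout mice (adjusted p = 0.168) and 1.17 ± 0.47 in wild type mice (adjusted p = 0.113).

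**Figure D3:**
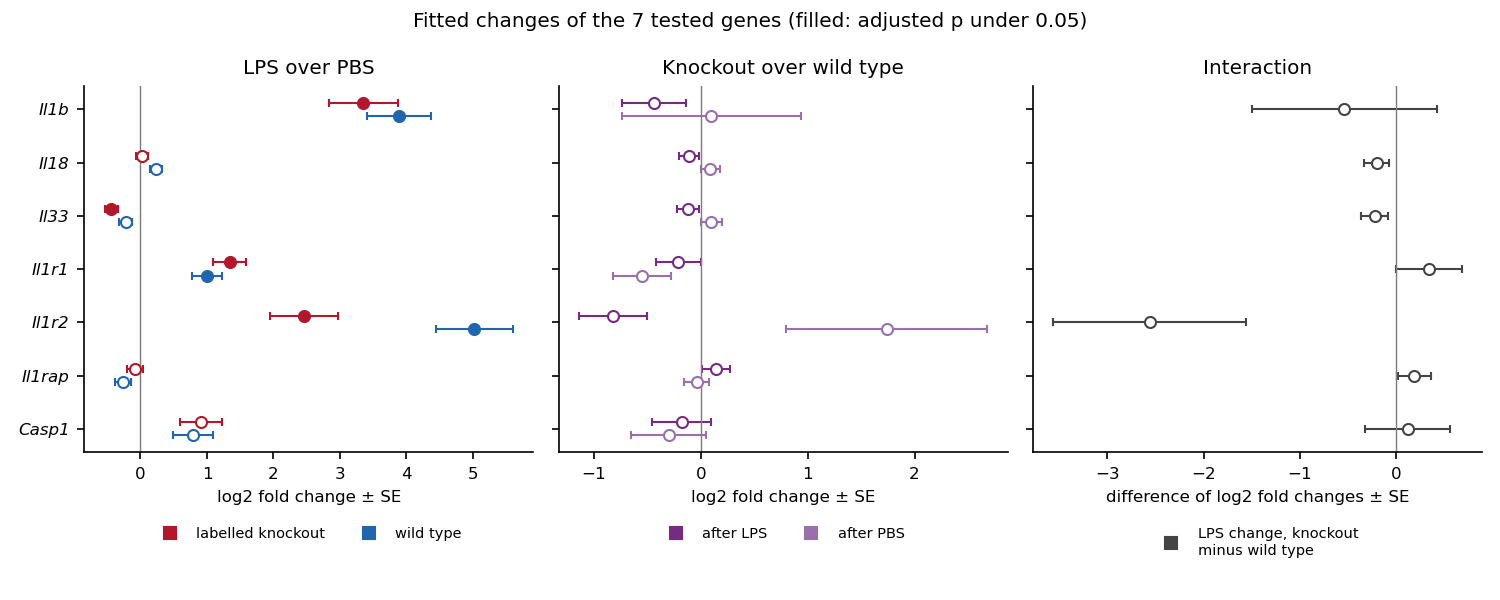
Fitted log2 fold changes ± SE (x axes) of the 7 tested genes for LPS over PBS, knockout over wild type and the interaction (LPS change in knockout minus that in wild type); filled points had an adjusted p under 0.05. Il1b, Il1r1 and Il1r2 are filled and positive in both genotypes for LPS over PBS, Il33 is filled and negative in knockout mice, and no point is filled in the other panels. The wild type Il1r2 value, and the interaction drawn from it, depend on 3 PBS counts.

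No member was called between genotypes or in the interaction, the test of whether the LPS change differed between genotypes, by edgeR or DESeq2. At an unadjusted p under 0.05 there was 1 of the 7 in each of the 3 comparisons: Il1r2 after LPS, Il1r1 after PBS and Il1r2 in the interaction. Over all 14380 genes 11.4%, 8.73% and 9.78% had such a p after LPS, after PBS and in the interaction, so 1 of 7 stands near the background. By adjusted p 1.05% of all genes were called between knockout and wild type mice after LPS, 0.132% after PBS and 0.00695% in the interaction. After LPS, Il1b was -0.44 ± 0.30 on the log2 scale in knockout relative to wild type mice (edgeR adjusted p = 0.624, 95% interval -1.03 to 0.15), and Il1r1 was -0.21 ± 0.21 (adjusted p = 0.763, interval -0.61 to 0.19). Il1r2 was -0.82 ± 0.32, with all 6 knockout libraries below the wild type mean, but an unadjusted p of 0.0151 and an adjusted p of 0.275. Without wild type LPS libraries 1 and 2 these 3 values were -0.66, -0.05 and -1.05, with adjusted p of 0.28, 0.947 and 0.0705. After PBS, Il1r2 had 11 counts in knockout and 3 in wild type libraries, a ratio of 3.98 (exact 95% interval 1.05 to 22.2; edgeR adjusted p = 0.619), and Il1r1 was -0.55 ± 0.27 (adjusted p = 0.57). Il1r2 also had the largest fitted interaction, -2.56 (unadjusted p = 0.0145, adjusted p = 0.379), a value that depends on the 3 wild type PBS counts. Intervals of this width leave differences between genotypes possible that these libraries could not detect.

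Ranked by level, Il33, Il18, Il1rap and Il1r1 came in this order in all 4 groups. Il18 exceeded Il1rap and Il1rap exceeded Il1r1 in 6 of 6 libraries of each group, and Il33 exceeded Il18 in 5 of 6 libraries in each LPS group and 6 of 6 in each PBS group. The lower ranks differed between treatments. After LPS the fifth to seventh places were held by Il1b, Casp1 and Il1r2 in knockout mice and by Il1r2, Il1b and Casp1 in wild type mice, where neighbours exceeded each other in 2 to 4 of 6 libraries and cannot be ordered. After PBS, Casp1 and Nlrp3 had the higher means, above those of Il1r2, Il1b, Il1a and Il1rn in both genotypes, but in knockout mice Nlrp3 exceeded Il1r2 in only 3 of 6 libraries. Libraries of 3′ ends give about 1 tag per transcript whatever its length, so levels of different genes were set side by side without a length correction.

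For each tested member with a mean of at least 2 CPM, the 3 genes with the smallest root mean square difference in centred log2 CPM over the 24 libraries were named; these differences are a description of likeness. The genes nearest to Il1b were Ccl6, Cyp4f18 and Rac2, at 0.43, 0.43 and 0.46, where Il1b itself spanned 3.88. Nearest to Il1r2 (span 4.34) were Cd300lf at 0.56 and Gfap and Ptprc at 0.58, and nearest to Il1r1 (span 2.4) were Mt2 and Slc2a1 at 0.34 and Scrg1 at 0.35. Il33 (span 1.18) was nearest to Adcy2 and Adcy5 at 0.17 and Glrb at 0.18. Casp1 (span 2.3) was nearest to Abca1 and Gpr146 at 0.39 and Fkbp5 at 0.4, Il18 (span 0.62) to Vps28, Ssr2 and Mpst at 0.1 to 0.11, and Il1rap (span 0.97) to Hey1, Npat and Purg at 0.14 to 0.16.

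Of 18 further genes of IL-1 receptor signalling, all tested, 3 rose after LPS in each genotype and 1 fell in wild type mice, counts to be read against the 7.05% of all genes called higher in knockout mice and the 10.9% higher and 7.12% lower in wild type mice. The median log2 fold change of the list was 0.02 in both genotypes. On the log2 scale the kinase gene Irak4 rose by 1.34 ± 0.28 in knockout mice (edgeR adjusted p = 0.000599) and 1.49 ± 0.27 in wild type mice (adjusted p = 2.89e-05). Irak3, which encodes an inhibitory IRAK and reached the count minimum in LPS libraries only, rose by 1.27 ± 0.35 in knockout mice (adjusted p = 0.0094) and 1.64 ± 0.32 in wild type mice (adjusted p = 0.000148), and the adaptor gene Myd88 by 0.58 ± 0.18 in knockout mice (adjusted p = 0.0279) and 0.92 ± 0.18 in wild type mice (adjusted p = 0.000169). The Myd88 call in knockout mice held in 19 of 24 fits that left out 1 library and was lost without knockout LPS library 1 or 4 or knockout PBS library 1, 4 or 5 (adjusted p up to 0.156, without LPS library 4). Chuk, which encodes an IκB kinase, was -0.26 ± 0.10 in wild type mice (adjusted p = 0.0456) and 0.16 ± 0.10 in knockout mice (adjusted p = 0.364); the wild type call held in 15 of 24 such fits, being lost without wild type LPS library 2, 3, 4 or 5, wild type PBS library 2, 3, 4 or 6 or knockout LPS library 5, and the interaction was 0.42 (adjusted p = 0.293). Without wild type LPS libraries 1 and 2 that interaction was called (0.50 ± 0.14, adjusted p = 0.045).

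Of 20 further genes of inflammasomes and pyroptosis, 11 were tested and 9 of these rose after LPS in each genotype (8 in knockout and 7 in wild type mice by DESeq2; 5 when only the 2 knockout groups were fitted), with a median of 0.99 in knockout and 0.83 in wild type mice. Of the 11, 3 (Gsdmd, Naip2 and Naip5) reached the count minimum in LPS libraries only, so their rise is partly fixed by the filter. Of the other 8, 6 rose in each genotype, against 7.05% of all genes in knockout and 10.9% in wild type mice. These 6 include Casp12 and Aim2, which reached the minimum in only 3 and 4 PBS libraries. The filter needed 6 libraries, so both were tested only through LPS libraries, and 6 of 8 is also partly fixed by it. Pycard, the adaptor that joins sensors to caspase-1, rose by 2.07 ± 0.24 in knockout mice (edgeR adjusted p = 6.9e-09) and 2.40 ± 0.24 in wild type mice (adjusted p = 3.84e-11). Gsdmd, whose product forms the pores through which IL-1β leaves the cell, rose by 2.17 ± 0.41 in knockout mice and 2.18 ± 0.35 in wild type mice. Naip2, a sensor of bacterial secretion systems, rose by 1.77 ± 0.38 in knockout mice and 1.92 ± 0.36 in wild type mice. Txnip, a thioredoxin-binding protein, rose by 0.68 ± 0.13 in knockout mice and 0.83 ± 0.12 in wild type mice, and P2rx7, an ATP-gated channel, by 0.67 ± 0.13 in knockout mice and 0.72 ± 0.13 in wild type mice. These 5 calls held in 24 of 24 leave-one-out fits in both genotypes. Leaving out 1 library gave 8 to 10 genes of the list in knockout mice and 7 to 10 in wild type mice.

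Of 16 genes known to be induced by IL-1 in brain vessels or astrocytes, 11 were tested and all 11 rose after LPS in both genotypes, with a median of 1.66 in knockout and 1.28 in wild type mice. Of the 11, 6 (Cxcl1, Icam1, Selp, Lcn2, Tnfaip3 and Socs3) reached the count minimum in LPS libraries only, so 11 of 11 and the median are partly fixed by the filter. The other 5 were called in both genotypes, against 7.05% of all genes higher in knockout and 10.9% in wild type mice. Among these 5, Ptges reached the minimum in 5 PBS libraries, fewer than the 6 libraries needed, so it too was tested only through LPS libraries. Many of these genes also respond to other cytokines and to LPS itself. Lcn2, a siderophore-binding protein, rose by 6.43 ± 0.33 in knockout mice (edgeR adjusted p = 5.19e-20) and 7.25 ± 0.32 in wild type mice (adjusted p = 2e-22). The adhesion molecule genes Icam1 and Vcam1 rose by 4.28 ± 0.37 and 1.07 ± 0.10 in knockout mice and by 3.74 ± 0.32 and 1.28 ± 0.10 in wild type mice. Socs3, a feedback inhibitor of cytokine signalling, rose by 1.66 ± 0.32 in knockout mice and 2.56 ± 0.30 in wild type mice. Cxcl1, a neutrophil chemokine, had 146 counts after LPS and 1 after PBS in knockout mice, a ratio of 148 (exact 95% interval 26.2 to 5890), and 131 and 3 in wild type mice, a ratio of 48.2 (16.2 to 237). Endothelial markers also rose, with the sums given beside Il1r1.

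**Figure D4:**
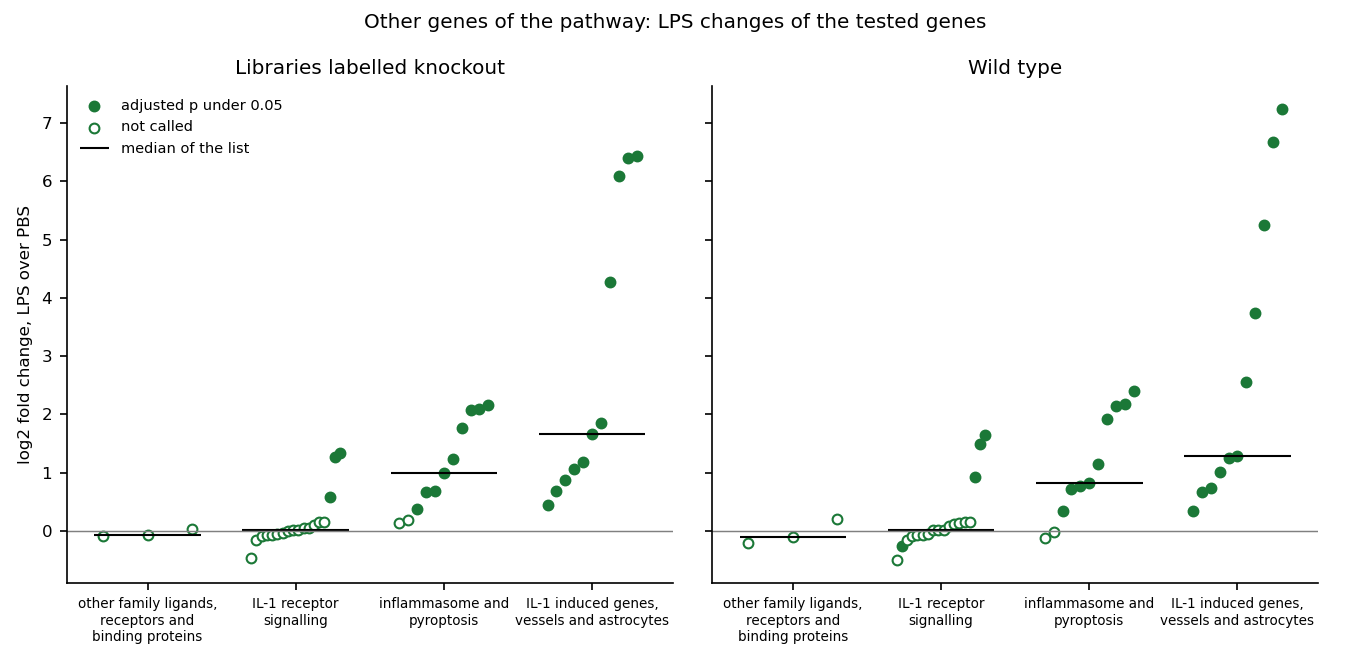
Log2 fold change of LPS over PBS (y axis) for the tested genes of the 4 other lists, in knockout (left) and wild type mice (right); filled points had an adjusted p under 0.05 and lines are list medians. The signalling list centres on 0.02 in both genotypes, and the medians of the IL-1 induced genes are 1.66 and 1.28.

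The remaining list held 13 other ligands, receptors and binding proteins of the family, of which 3 were tested. Il18bp, Il1rapl1 and Il1rapl2 were not called after LPS by edgeR or DESeq2, Il1rapl1 in wild type mice having the 1 unadjusted p under 0.05 (log2 fold changes 0.04, -0.08 and -0.07 in knockout mice and 0.20, -0.20 and -0.11 in wild type mice). Among those below the count minimum, Il18rap, the accessory chain of the interleukin-18 receptor and the last gene of the chromosome 1 receptor cluster, is named after its values were seen. It had 19 counts in knockout mice given LPS, 29 in wild type mice given LPS and none in either PBS group. Against a floor of 3 counts over the group, this was at least 6.43-fold higher after LPS in knockout mice and at least 10.7-fold higher in wild type mice. The cluster's other genes, Il1rl2, Il1rl1 and Il18r1, had 18, 3 and 5 counts in knockout mice given LPS, 21, 1 and 4 in wild type mice given LPS, 3, 3 and 1 in knockout mice given PBS, and 11, 7 and 1 in wild type mice given PBS. Il18rap was not the only gene of the list called higher by edgeR without the count minimum. That fit also called Il1rl2 in knockout mice (adjusted p = 0.0425). In wild type mice it also called Il1f9 (edgeR adjusted p = 0.0156) and Sigirr (adjusted p = 0.0144). The Il1f9 call rested on 8 counts in 3 of 6 wild type LPS libraries, with none after PBS and 1 count in knockout mice given LPS. The fit called 3.54% of all genes higher in knockout and 5.01% in wild type mice. None of the genes in the 4 lists was called between genotypes or in the interaction in the edgeR fit of all libraries or by DESeq2. At an unadjusted p under 0.05 there were 4 of 43 tested after LPS, 2 after PBS and 1 in the interaction, no more than the 11.4%, 8.73% and 9.78% of all genes. Other edgeR settings did call a few of the named genes. After LPS, Lcn2 was -0.43 in knockout relative to wild type mice (log2, adjusted p = 0.159), and was called without wild type LPS libraries 1 and 2 (-0.53, adjusted p = 0.0391), without knockout LPS library 1 (-0.59, 0.0213) or 4 (-0.57, 0.0377), and without the count minimum (-0.42, 1.56e-05). Socs3 was -0.71 (adjusted p = 0.146), and was called without wild type LPS libraries 1 and 2 (-0.89, adjusted p = 0.0299) or without library 2 alone (-0.83, 0.0467). Txnip was -0.32 (edgeR adjusted p = 0.214) and was called without the count minimum (-0.31, adjusted p = 0.0144). In that fit the SE of Lcn2 and Txnip was 0.08, against 0.15 and 0.12 without wild type LPS libraries 1 and 2. The limit given with Il1a applies to both calls made without the count minimum.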

How the data were processed

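Per the labels' protocols, total RNA (100 ng input) was made into QuantSeq 3′ mRNA-Seq libraries. The authors deposited a table of raw read counts per gene; the submitters' processing notes name bcl2fastq, STAR 2.7.3a, featureCounts of Subread 2.0.0, DESeq2 1.26.0 and builds mm10 and GRCm38, and the annotation release and strand setting were not given in the sources used here. Counts were tested with edgeR 4.0.16 in R 4.3.3 (TMM, filterByExpr with a minimum count of 10, quasi-likelihood F test, a mean per group over all 24 libraries, Benjamini-Hochberg adjustment over 14380 genes). Intervals on fold changes are 1.96 SE; count ratios have exact binomial 95% intervals, which cover counting error only. The script was tested on simulated data. Each animal is 1 library; replicates differed by more than sampling noise. Replicate numbers were not used as pairs in the main fit (correlations of same-numbered deviations from -0.0611 to 0.0837, none of 6 pairs over 0.1 in any comparison). Own-numbered libraries still correlated best in 4 of 6 between genotypes after LPS. The members and lists were chosen with earlier results of these data known. All 10 members are named; of each other list, the at most 5 genes called after LPS with the smallest p in wild type mice are named, and likeness took 3 genes per member. Alternatives were DESeq2 1.42.0, other filters, scalings and sample sets, a replicate block and leaving out each library; those on the named list genes, and repeats of the fit without filter, were added after seeing the data.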

Additional observations from a re-analysis of the deposited data

Results flagged for a closer look

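In 40 sets of 6 libraries (10 genes in 4 groups), 4 held a library far from the other 5 by Dixon's test. Chance gives this in about 1 in 20 sets of continuous values. All 4 were in genes near the detection limit, where that rate does not apply. Any count beside 5 libraries at 0 is flagged, so the number of flags is no evidence of unusual libraries. Il1a was 1.12 CPM (5 counts) in knockout LPS library 1, and the next highest of the group was 0.385 CPM. Il1a was 0.524 CPM (2 counts) in knockout PBS library 5 and 0 in the other 5. Il1rn was 0 CPM in knockout LPS library 2, where the next lowest was 1.37 CPM. Il1rn was 0.241 CPM (1 count) in knockout PBS library 2 and 0 in the other 5.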

How the results depend on the processing

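The calls of Il1b, Il1r1 and Il1r2 after LPS in both genotypes and of Il33 in knockout mice held in all 24 fits that left out 1 library, with DESeq2, with DESeq2 size factors, without the count minimum, with the replicate block and without wild type LPS libraries 1 and 2. Fitted on the 2 knockout groups alone, only 1 member was called higher (Il1r1), because Il1b and Il1r2 then failed the count minimum. With a log2 fold change over 1 required as well, 0 members were lower in knockout mice. 1 member was called lower in wild type mice without the count minimum (Il33) and without wild type LPS libraries 1 and 2 (Il1rap). Leaving out 1 library gave 3 to 4 members higher and 0 to 1 lower in wild type mice, 3 to 4 higher and 1 lower in knockout mice, and 0 in the other comparisons. Low counts limit Il1a, Il1rn and Nlrp3.

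Over all genes, LPS gave 1572 higher and 1024 lower calls in wild type mice (leaving out 1 library, 1395 to 1658 and 800 to 1121; with a log2 change over 1, 518 and 14), and 1014 and 550 in knockout mice (925 to 1057 and 392 to 588; 427 and 11). Knockout against wild type gave 38 higher and 113 lower after LPS (19 to 74 and 53 to 215; with a log2 change over 1, 9 and 14; without the minimum, 97 and 196; without wild type LPS libraries 1 and 2, 177 and 384) and 6 and 13 after PBS (6 to 15 and 7 to 20; 6 lower with a log2 change over 1; without the minimum, 43 and 45; without those 2 libraries, 15 and 21; 16 higher with only the 2 groups). The interaction gave 0 and 1 (0 to 5 and 1 to 15; 28 and 39 without the minimum; 84 and 165 without those 2 libraries; 10 lower with DESeq2). With the replicate number as a block, 71 were higher and 202 lower between genotypes after LPS, 22 higher after PBS, and 3 and 5 in the interaction. Between genotypes after LPS the block also called Lcn2 (-0.49, edgeR adjusted p = 0.0131) and Socs3 (-0.77, 0.0431). In that comparison own-numbered libraries correlated best in 4 of 6, and in 1 to 2 of 6 in the others. All correlations were weak, and whether libraries of 1 number share a condition was not tested. The causes of these shifts were not tested.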

Other observations

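Among the genes of the other lists that failed the count minimum, the fit without it called Casp4, the caspase that senses LPS inside the cell in mice, and Casp8 higher after LPS in both genotypes. Casp4 had 56 counts in knockout mice given LPS, 62 in wild type mice given LPS, 10 in knockout mice given PBS and 9 in wild type mice given PBS (edgeR adjusted p = 4.12e-05 in knockout and 3.98e-07 in wild type mice). Casp8 had 57 counts in knockout mice given LPS, 69 in wild type mice given LPS, 11 in knockout mice given PBS and 24 in wild type mice given PBS (adjusted p = 5.3e-05 in knockout and 0.00076 in wild type mice). Il6, a cytokine induced by IL-1, had no count in either LPS group and 1 count in each PBS group. These genes were chosen after their values were seen, and the calls of Casp4 and Casp8 carry the limit of that fit given with Il1a.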
